A study of Homo sapiens with 12 samples.

Results

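The 10 genes described here are transcriptional outputs and feedback inhibitors of the mitogen-activated protein kinase (MAPK) pathway. They were chosen by name, with earlier results of these data known: DUSP4, DUSP5, DUSP6, SPRY2, SPRY4, SPRED1, SPRED2, ETV4, ETV5 and PHLDA1. Each name matched 1 row among the 58302 genes of the table, and all 10 passed the filter on low values, as did 16027 genes in all. The values came from RNA sequencing of 12 libraries, 3 each of TPC1 and of D11, WB1 and TD5. TPC1 cells derive from a human papillary thyroid carcinoma, and their libraries have the genotype wt and no treatment. D11, WB1 and TD5 have the genotype DICER (+/-). They were derived from TPC1 by transient transfection of a CRISPR/Cas9 plasmid with a guide in an exon of Dicer1, the gene of the RNase that cuts miRNA precursors. All 4 lines were grown in the same RPMI medium with serum. Each Dicer1 (+/−) line was grown from 1 sorted cell, so the genotype cannot be told apart from what else differs between single cells of TPC1. The labels do not say whether the 3 libraries of a line came from separate cultures, and p-values then measure only the spread between these libraries, which may be technical.

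In the MAPK pathway, receptor tyrosine kinases switch on RAS, which activates the kinases RAF, MEK and ERK in turn. ERK enters the nucleus and drives genes that report its activity, among them the ETS factors ETV4 and ETV5. Other ERK-driven genes act back on the pathway: DUSP phosphatases remove phosphate from ERK and related kinases, and SPRY and SPRED proteins restrain signalling between the receptor and RAF. Papillary thyroid carcinomas commonly carry an activated member of this pathway, and TPC1 cells carry a RET fusion.

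The deposited values are reads per gene that were scaled to 20000000 aligned reads per library and rounded up, called scaled reads below. The reads behind them were estimated from the steps between values at 13750000 to 21020000 (TPC1), 14580000 to 16800000 (D11), 16460000 to 17330000 (WB1) and 12700000 to 15900000 (TD5). A count of 3 reads corresponded to 2.85 to 4.72 scaled reads, and every member lay above this floor, which covers counting error only, in all 12 libraries. DICER1 had 1197 ± 142 scaled reads in TPC1 (SD, n = 3). The means of D11, WB1 and TD5 were 1040 ± 58.7, 878 ± 62.0 and 693 ± 101. By limma, with Benjamini-Hochberg adjustment over all genes tested, it was lower in WB1 (log2 fold change −0.43, adjusted p = 0.00404) and TD5 (−0.77, adjusted p = 9.02e-05), while in D11 (−0.19) the adjusted p was 0.138. With median-of-ratios scaling (−0.25, adjusted p = 0.0456), after length correction (−0.33, adjusted p = 0.0031) and after GC correction (−0.40, adjusted p = 0.000258) D11 passed the threshold too. With the replicate number as a block D11 missed it (limma adjusted p = 0.177). With 1 library left out the log2 fold change of DICER1 in D11 ranged from −0.25 to −0.10. Over all alternatives its adjusted p in D11 ranged from 0.000258 to 0.471. Of 8 thyroid markers, PAX8 had 7248 to 9879 scaled reads, FOXE1 93 to 316 and TG 11 to 27. Others, among them TSHR, NKX2-1 and SLC5A5, were at 0 in every library. Of 6 epithelial markers KRT8 had 10280 to 16274, KRT18 5237 to 7775 and KRT7 209 to 308, while CDH1, EPCAM and KRT19 had 10 or fewer in every library. Of the 3 epithelial markers tested 2 were lower in each clone by limma (adjusted p under 0.05), and the part of this in the results below was not tested. Of 12 stromal, endothelial and blood markers 9 had 10 or fewer, while CD68 had 921 to 1514, PDGFRB 37 to 192 and COL1A1 48 to 97. Of the 3 of these tested, 1 was lower in each clone by limma (adjusted p under 0.05) and 1 was higher in WB1. Of the 3 thyroid markers tested, 1 was lower in each clone and 1 was higher in WB1 and in TD5. The part of these shifts in the results below was not tested. The 13 mitochondrially encoded genes took 1.04 to 1.16% of the reads of TPC1, against 1.67 to 1.77% (D11), 1.53 to 1.8% (WB1) and 1.34 to 1.57% (TD5), and the part of this shift in the results below was not tested.

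Sequences were taken from RefSeq and GENCODE for 2 features of the members. The first is the target site of miR-21-5p, an abundant miRNA of thyroid carcinomas that is made by Dicer1. Among 8 miRNAs examined, its seed (bases 2 to 8, in capitals) was matched in the 3′ UTRs of DUSP5, SPRY2 and SPRY4. Each of these genes, and PHLDA1, also held a match of miR-27a-3p, so a shared match is not particular to miR-21-5p. The sites of miR-21-5p are shown because DUSP5 was lower in every clone while SPRY2 and SPRY4 passed the test as lower in none. This choice was made with the values known, and any part of the sites in these changes was not tested. The capitals in the sites mark the match to the seed.
miR-21-5p: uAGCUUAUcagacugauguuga
DUSP5: ctgttgcttcggggcATAAGCTgatc
SPRY2: tgacccatgtattgcATAAGCTaaag
SPRY4: ggagagtcgatttacATAAGCTgtgt
The match lay at bases 461 to 467 of the 1107 bases of the DUSP5 3′ UTR. It lay at bases 236 to 242 of 782 in SPRY2 and at 2235 to 2241 of 3779 in SPRY4. Of all tested genes with a 3′ UTR of at least 100 bases, 10.2% held ATAAGCT, and among UTRs of like length 5.8, 3.9 and 18.8% did, for DUSP5, SPRY2 and SPRY4 in turn. A match is not evidence that the site is used, and miRNAs were not measured in these libraries.

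The other feature is the motif of EGR1, an ERK-driven transcription factor whose own transcript was several times higher in each clone (values below). RefSeq promoters of 6 of the 10 genes were examined (DUSP6, SPRY2, SPRY4, SPRED1, SPRED2 and PHLDA1), as 9 windows of 250 bases before a start site. Searched on both strands, GCGNGGGCG was found in 2 of the 9 windows, 1 each of SPRY2 and SPRY4, and in 8.41% of all 35116 promoter windows. The SPRY2 and SPRY4 windows with a match were 70.4 and 65.6% G and C, and the share of all windows was not matched for this. Both are shown on the strand of the gene with the EGR1 matches in capitals. The SPRY2 window is chr13:80341127-80341376 and the stretch of the SPRY4 window outside annotated SPRY4 exons is chr5:142324418-142324497 (GRCh38, minus strand). The SPRY4 window lies within the annotated gene (142310427 to 142326455).
SPRY2: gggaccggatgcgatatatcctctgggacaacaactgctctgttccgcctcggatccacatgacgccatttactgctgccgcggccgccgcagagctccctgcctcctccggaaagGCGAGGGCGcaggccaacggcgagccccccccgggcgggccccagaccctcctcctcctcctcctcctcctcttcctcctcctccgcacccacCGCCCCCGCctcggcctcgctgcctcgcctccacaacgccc
SPRY4: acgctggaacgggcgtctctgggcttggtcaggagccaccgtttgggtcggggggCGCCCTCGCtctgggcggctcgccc
The SPRY2 matches lay 134 to 126 and 41 to 33 bases upstream of the start, the latter overlapping a match to the SP1 motif GGGCGG, and the SPRY4 match lay 195 to 187 bases upstream. A match is not evidence that EGR1 binds there, and binding was not measured. The motif was chosen with the values of EGR1 known, and any part of it in the changes of the members was not tested. None of the 9 windows held the letters of a CRE (TGACGTCA, in 1.65% of all windows), an AP-1 site (TGANTCA, 6.57%), an ETS site (CCGGAAG, 8.52%) or an SRF CArG box (1.16%).

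The abundance of the members spanned a wide range. Per kilobase of the canonical transcript, the mean over the 12 libraries was 36.3 reads per 1000000 for PHLDA1, 33.8 for ETV5, 25.8 for DUSP5, 18.7 for SPRY2, 13.5 for SPRED2, 9.23 for ETV4, 8.81 for DUSP6, 7.77 for SPRY4, 6.04 for SPRED1 and 0.302 for DUSP4. The ranges over the 12 libraries overlapped between all neighbours in this order except SPRED2 with ETV4 and SPRED1 with DUSP4. ETV5 was the steadiest, its highest library being 1.2 times its lowest. For the other abundant members, PHLDA1 and DUSP5, this ratio was 1.89 and 1.76, and for DUSP4, the least abundant, 3.1.

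**Figure D1:**
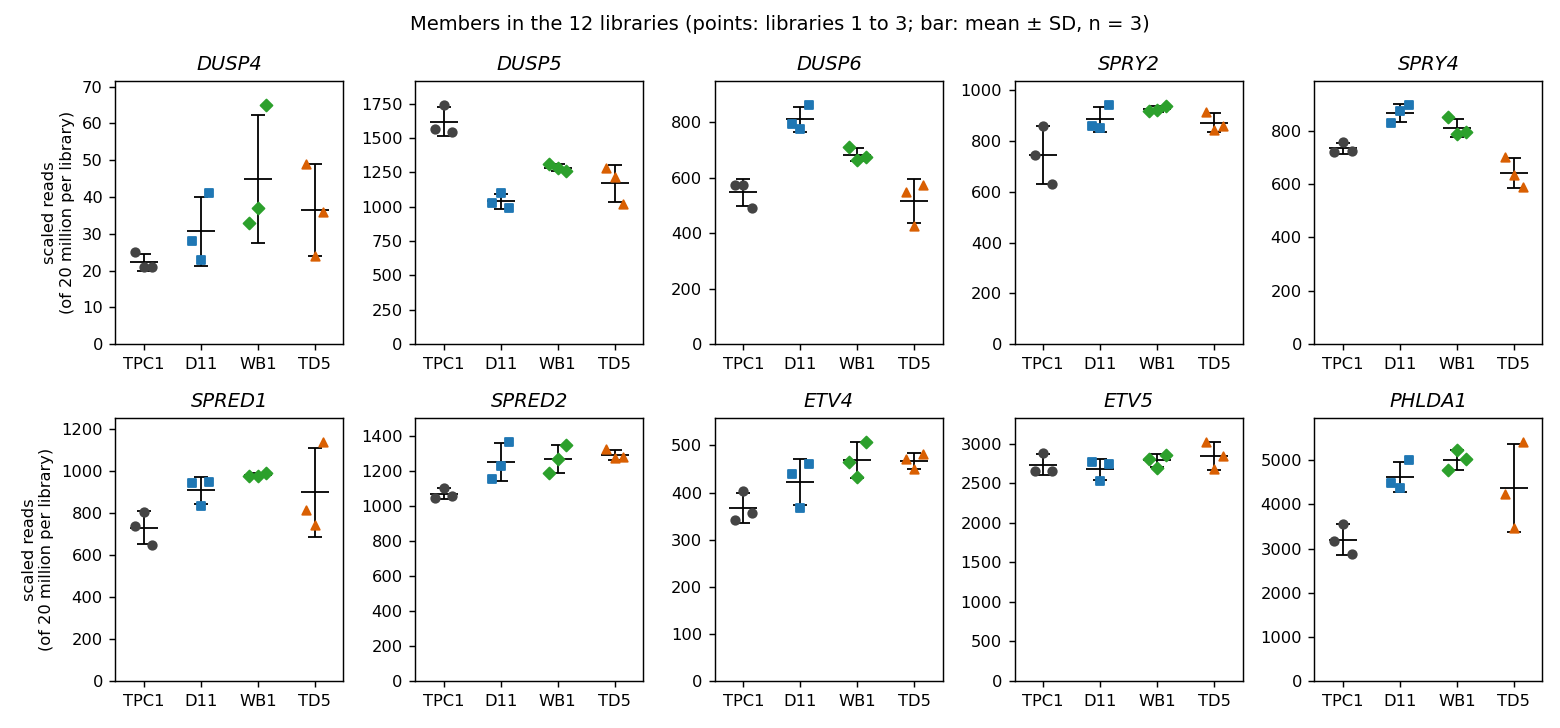
Scaled reads of each member (y axis, of 20000000 per library) in the 12 libraries by line (x axis), with points for libraries and bars for the mean ± SD of 3. All 9 clone libraries lie below the TPC1 libraries for DUSP5 and above them for SPRED2, while DUSP6 is high in D11 and overlaps with TPC1 in TD5.

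The phosphatases did not move together: DUSP5 fell in all 3 clones, DUSP6 rose in D11 and WB1 but not in TD5, and DUSP4 was sparsely read and passed the test in WB1 alone. DUSP5 (ENSG00000138166, chromosome 10, 110497907 to 110511533 of GRCh38) is a nuclear phosphatase of ERK. It had 1569, 1741 and 1546 scaled reads in TPC1 and 1029, 1100 and 992 in D11. It had 1313, 1279 and 1262 in WB1 and 1281, 1215 and 1021 in TD5. Every clone library was thus below every TPC1 library. The mean of 1619 ± 107 (SD, n = 3) in TPC1 compared with 1040 ± 54.9 in D11, or 64.3% of it. It was 1285 ± 26.0 (79.4%) in WB1 and 1172 ± 135 (72.4%) in TD5. In such bulk libraries fewer cells of a kind and less RNA per cell cannot be told apart. On the log2(value per 1000000 + 1) scale, which is used for all fold changes here, limma placed D11 at −0.63 (standard error 0.08, adjusted p = 3.94e-05), WB1 at −0.33 (adjusted p = 0.00598) and TD5 at −0.46 (adjusted p = 0.00115). Only the fall in D11 also reached 1.5-fold, which together with an adjusted p under 0.05 defined a call. This call was lost without TPC1 replicate 2 (−0.58) and after correction of each library for GC content (−0.56), but the adjusted p stayed under 0.05 in all 3 clones under all 23 alternatives tried.

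DUSP6 (ENSG00000139318, chromosome 12, 89347235 to 89352501), the cytoplasmic phosphatase of ERK and a common readout of its activity, went the other way in D11. It had 575, 574 and 491 scaled reads in TPC1 and 795, 776 and 862 in D11. WB1 had 709, 665 and 676, and TD5 had 550, 425 and 572. The libraries of D11 and WB1 were all above those of TPC1, and those of TD5 overlapped with them. TPC1 averaged 547 ± 48.2 (SD, n = 3), D11 811 ± 45.2, WB1 683 ± 22.9 and TD5 516 ± 79.3. Relative to TPC1 limma placed D11 at 0.55 on the log2 scale (standard error 0.10, adjusted p = 0.000789), WB1 at 0.31 (adjusted p = 0.0239) and TD5 at −0.09 (adjusted p = 0.617, 95% interval −0.30 to 0.12). The rise in WB1 missed the threshold without TPC1 replicate 3 (adjusted p = 0.122), without WB1 replicate 1 (0.0794), with median-of-ratios scaling (0.0533) and after GC correction (0.0639). An antisense lncRNA overlaps DUSP6 and had 102 to 170 scaled reads. The strand setting of the counting is not given in the sources used here, so that reads of such partners could not be told apart.

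DUSP4, a nuclear phosphatase induced by ERK (ENSG00000120875, chromosome 8, 29333064 to 29350684), was sparsely read. It had 25, 21 and 21 scaled reads in TPC1 and 28, 23 and 41 in D11. WB1 had 33, 37 and 65, and TD5 had 49, 24 and 36. The WB1 libraries were all above those of TPC1, and those of D11 and TD5 overlapped with them. The WB1 mean of 45 ± 17.4 was 201.5% of the TPC1 mean of 22.3 ± 2.31, and with the pseudocount the fitted change was 1.503-fold (log2 0.59, standard error 0.19, limma adjusted p = 0.0271). This call was lost without WB1 replicate 3 (adjusted p = 0.133), TPC1 replicate 2 (0.0688) or TPC1 replicate 3 (0.0848), and without the filter on low values (0.0804). With median-of-ratios scaling, a pseudocount of 4 or the GC or length correction the fitted change was under 1.5-fold (log2 0.55, 0.28, 0.56 and 0.49), and after length correction the adjusted p was 0.0501.

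The 4 SPRY and SPRED genes had positive log2 fold changes in D11 and WB1. At an adjusted p under 0.05 by limma, SPRED2 rose in all 3 clones, SPRY2 in D11 and WB1, SPRY4 in D11 and SPRED1 in WB1. All rose by less than 1.5-fold. SPRY2 (ENSG00000136158, chromosome 13, 80335976 to 80341126), which restrains RAS activation below growth factor receptors, had 745, 858 and 632 scaled reads in TPC1 and 861, 852 and 942 in D11. WB1 had 917, 923 and 938, and TD5 had 916, 842 and 860. The TPC1 libraries were spread most widely, and those of WB1 lay above them without overlap. By limma D11 stood at 0.25 relative to TPC1 (standard error 0.09, adjusted p = 0.0384), WB1 at 0.32 (adjusted p = 0.0135) and TD5 at 0.23 (adjusted p = 0.0986). The rise in D11 missed the threshold under 11 of the 23 alternatives, among them those without TPC1 replicates 1 (0.0679) or 3 (0.213) or D11 replicates 1 (0.0602), 2 (0.0624) or 3 (0.149). That in WB1 did so without TPC1 replicate 3 (0.0828). TD5 passed the threshold after GC correction (0.0347), also with the replicate block (0.0466), and without TPC1 replicate 2 (0.0188). SPRY2 did not differ between TD5 and D11 by limma (−0.02, adjusted p = 0.896).

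SPRY4 (ENSG00000187678, chromosome 5, 142310427 to 142326455), a second inhibitor of the family, had 720, 758 and 722 scaled reads in TPC1 and 829, 873 and 896 in D11. It had 850, 789 and 795 in WB1 and 701, 633 and 588 in TD5. No library of a clone overlapped with those of TPC1, but D11 and WB1 lay above them and TD5 below. In the limma fit D11 stood at 0.23 relative to TPC1 (standard error 0.07, adjusted p = 0.0238), WB1 at 0.14 (adjusted p = 0.154) and TD5 at −0.19 (adjusted p = 0.101). The first missed the threshold with median-of-ratios scaling (adjusted p = 0.0804), after length correction (0.141), and without TPC1 replicates 1 (0.0595) or 3 (0.0716) or D11 replicates 2 (0.0703) or 3 (0.0938). SPRY4-AS1, on the other strand, overlaps SPRY4 and had 9 to 23 scaled reads.

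SPRED1 and SPRED2 bind neurofibromin, a RAS inactivator, and keep RAF from being activated. SPRED1 (ENSG00000166068, chromosome 15, 38252836 to 38357249) had 738, 803 and 647 scaled reads in TPC1 and 944, 833 and 948 in D11. WB1 had 978, 975 and 990, and TD5 had 812, 745 and 1140. The libraries of D11 and WB1 were above those of TPC1, and TD5 spread across both. On the log2 scale limma put D11 at 0.31 relative to TPC1 (standard error 0.12, adjusted p = 0.0514), WB1 at 0.42 (adjusted p = 0.0133) and TD5 at 0.28 (adjusted p = 0.142). The GC content of its transcript, 36.3%, was at percentile 3.6 of the genes tested, and GC correction left 0.03 in D11 (adjusted p = 0.864) and 0.19 in WB1 (0.154). Single libraries also moved it past the threshold in either direction: WB1 missed it without TPC1 replicate 3 (0.077), D11 passed it without TPC1 replicate 2 (0.0433) or TD5 replicates 2 (0.0287) or 3 (0.00608), and TD5 passed it without its replicate 2 (0.0296).

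SPRED2 (ENSG00000198369, chromosome 2, 65310851 to 65432637) was higher than in TPC1 in each of the 3 clones. It had 1043, 1103 and 1055 scaled reads in TPC1 and 1154, 1228 and 1365 in D11. It had 1187, 1265 and 1344 in WB1 and 1323, 1272 and 1275 in TD5. All 9 clone libraries were above the 3 TPC1 libraries. The limma fit placed D11 at 0.22 relative to TPC1 (standard error 0.07, adjusted p = 0.0246), WB1 at 0.24 (adjusted p = 0.0168) and TD5 at 0.27 (adjusted p = 0.0192). With median-of-ratios scaling the adjusted p was 0.092 in D11 and 0.0704 in WB1, and after length correction 0.123 and 0.0909. Without 1 library the threshold was missed in D11 (0.0554 to 0.145, TPC1 replicates 1 and 3 and D11 replicates 2 and 3), in WB1 (0.0539 and 0.0672, TPC1 replicate 3 and WB1 replicate 3) and in TD5 (0.0642 to 0.0707, TPC1 replicates 1 and 3 and TD5 replicate 1).

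The ETS factors ETV4 and ETV5 are close relatives that report ERK activity, and ETV4 rose in WB1 and TD5 while ETV5 passed the test in no clone. ETV4 (ENSG00000175832, chromosome 17, 43527844 to 43579620) had 342, 404 and 357 scaled reads in TPC1 and 439, 367 and 460 in D11. WB1 had 465, 432 and 508, and TD5 had 471, 449 and 481. The libraries of WB1 and TD5 were above those of TPC1, and those of D11 overlapped with them. In log2 units limma had D11 at 0.19 relative to TPC1 (standard error 0.10, adjusted p = 0.143), WB1 at 0.33 (adjusted p = 0.0156) and TD5 at 0.33 (adjusted p = 0.0327). In WB1 the threshold was missed without TPC1 replicates 1 (0.0588) or 3 (0.0564) or WB1 replicate 3 (0.0614), and in TD5 without TPC1 replicates 1 (0.12) or 3 (0.105) or TD5 replicates 1 (0.0856) or 3 (0.0865), without the filter (0.0605) or with only the 2 lines compared in the fit (0.0589). GC correction brought D11 past it (0.30, adjusted p = 0.0265). DHX8, on the other strand, overlaps ETV4 and had 1796 to 2213 scaled reads, more than ETV4 itself.

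ETV5 (ENSG00000244405, chromosome 3, 186046314 to 186110318) had 2655, 2889 and 2662 scaled reads in TPC1 and 2766, 2529 and 2751 in D11. WB1 had 2814, 2700 and 2860, and TD5 had 3029, 2680 and 2843. The libraries of all 4 lines overlapped. The limma log2 estimate against TPC1 was −0.03 for D11 (adjusted p = 0.747, 95% interval −0.16 to 0.10), 0.03 for WB1 (adjusted p = 0.743, −0.10 to 0.16) and 0.06 for TD5 (adjusted p = 0.596, −0.07 to 0.19). The upper ends of these intervals are below 1.5-fold. DGKG, on the same strand, overlaps ETV5 and had 277 to 449 scaled reads.

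PHLDA1 (ENSG00000139289, chromosome 12, 76025447 to 76031776), a growth factor-induced protein with a pleckstrin homology-like domain, rose in all 3 clones. It had 3175, 3565 and 2871 scaled reads in TPC1 and 4492, 4367 and 5000 in D11. WB1 had 4775, 5224 and 5035, and TD5 had 4231, 3459 and 5422. The libraries of D11 and WB1 were above those of TPC1, while TD5 replicate 2 fell among them. TPC1 averaged 3204 ± 348 (SD, n = 3), D11 4620 ± 335, WB1 5011 ± 225 and TD5 4371 ± 989. With limma D11 was at 0.53 relative to TPC1 (standard error 0.11, adjusted p = 0.00312), WB1 at 0.65 (1.57-fold, adjusted p = 0.000754, called) and TD5 at 0.43 (adjusted p = 0.0227). WB1 no longer met the 1.5-fold rule without TPC1 replicate 3 (0.57), with median-of-ratios scaling (0.58), and after correction for length (0.55) or GC content (0.50), with the adjusted p under 0.05 each time. The rise in TD5 missed the threshold without TPC1 replicates 1 (0.0675) or 3 (0.117) or TD5 replicates 1 (0.0573) or 3 (0.0883), without the filter (0.0651) or with only the 2 lines compared in the fit (0.0612). PHLDA1-AS1, an antisense lncRNA that overlaps it, had 933 to 1411 scaled reads.

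**Figure D2:**
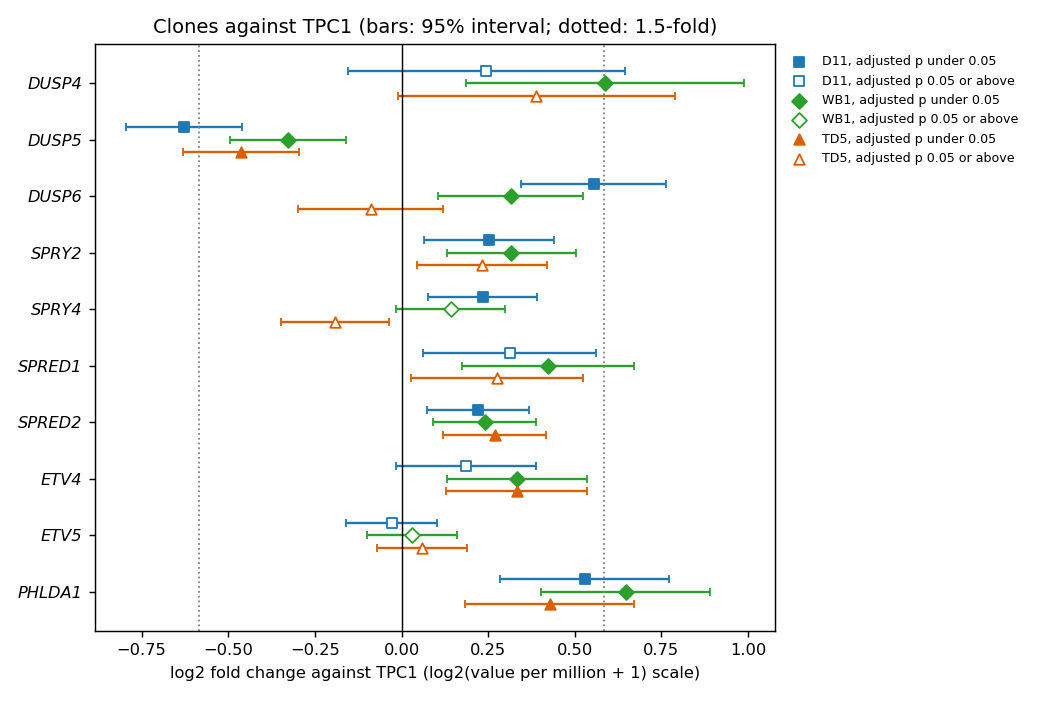
Log2 fold change of each member against TPC1 (x axis) with its 95% interval, for D11, WB1 and TD5, with filled symbols where the adjusted p was under 0.05 and dotted lines at 1.5-fold. DUSP5 lies left of 0 in all 3 clones, the intervals of ETV5 cross 0, and DUSP6 and SPRY4 lie right of 0 in D11 and left of it in TD5.

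Counted over the list, 5 of the 10 members rose and 1 fell in D11, where 19.9% of all genes tested rose and 13.4% fell at an adjusted p under 0.05. In WB1 7 rose and 1 fell, against 18.6% and 12.3% of all genes. In TD5 3 rose and 1 fell, against 5.32% and 6.57%. Only DUSP5 was called in D11, DUSP4 and PHLDA1 were called in WB1, and 0 of the members were called in TD5 by limma, where 7 had an unadjusted p under 0.05, and voom on the estimated reads also called 0. Of all genes 4.84%, 4.99% and 2.6% were called in D11, WB1 and TD5. The members' median log2 fold change was 0.24, 0.32 and 0.25 in D11, WB1 and TD5, beside 0.05, 0.06 and 0.00 over all genes. The libraries of 6, 9 and 4 members did not overlap with those of TPC1, which was so for 50.6, 45.3 and 26.5% of all genes. The 3 comparisons use the same TPC1 libraries. The members were chosen with earlier results of these data known, so their counts and medians are no test against all genes. The counts of members with an adjusted p under 0.05 depended on single libraries. In D11 the 6 became 3 without TPC1 replicates 1 or 3 or D11 replicates 2 or 3. In WB1 the 8 became 2 without TPC1 replicate 3 and 5 without WB1 replicate 3. In TD5 the 4 became 1 without TPC1 replicates 1 or 3 or TD5 replicate 1, and 2 without TD5 replicate 3.

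Compared with each other, the clones differed in 3 members: DUSP6 and SPRY4 were lower in TD5 than in both other clones, and DUSP5 was higher in WB1 than in D11. DUSP6 in TD5 was 63.6% of its mean in D11 (log2 −0.64, limma adjusted p = 0.00028, called) and 75.5% of that in WB1 (−0.40, adjusted p = 0.0139). SPRY4 was 74% of D11 (−0.43, adjusted p = 0.000793) and 79% of WB1 (−0.33, adjusted p = 0.00819). No library of TD5 overlapped with those of D11 or WB1 in either gene, as the values above show. DUSP5 in WB1 was 123.5% of D11 (0.30, adjusted p = 0.0252). Against D11, TD5 thus had 2 members past the threshold and 1 called, where 23.2% and 3.99% of all genes were. Against WB1 it had 2 and 0, where 13.6% and 2.33% were, and WB1 against D11 had 1 and 0, where 8.07% and 2.85% were. In both comparisons with 0 calls by limma, voom on the estimated reads called 0 as well and 2 members had an unadjusted p under 0.05. The libraries of 3, 2 and 3 members did not overlap in WB1 against D11, TD5 against D11 and TD5 against WB1, as in 26.8, 37.6 and 28.9% of all genes. The call of DUSP6 was lost without TD5 replicate 2 (−0.52) and after GC correction (−0.57, adjusted p = 9.44e-05). Its difference from WB1 missed the threshold without WB1 replicate 1 (0.0595) or TD5 replicate 2 (0.0662). That of DUSP5 missed it without the filter (0.0522) and without any 1 of D11 replicates 1 (0.0863) and 3 (0.115) and WB1 replicates 1 (0.0842), 2 (0.0647) and 3 (0.0619). The differences in SPRY4 held under all 23 alternatives. Without TD5 replicate 3, PHLDA1 was lower in TD5 than in D11 (−0.27, adjusted p = 0.0335) and WB1 (−0.39, adjusted p = 0.00762), SPRED1 was lower than in WB1 (−0.33, adjusted p = 0.0178) and DUSP5 was higher than in D11 (0.26, adjusted p = 0.0127).

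The balance of both ERK phosphatases was read from the ratio of DUSP6 to DUSP5 in each library, a measure chosen after the values were seen and given with no test. It was 0.366, 0.33 and 0.318 in TPC1 and 0.773, 0.705 and 0.869 in D11. In WB1 it was 0.54, 0.52 and 0.536, and in TD5 0.429, 0.35 and 0.56. D11 and WB1 were above TPC1 in every library, with D11 highest, and TD5 replicate 2 lay among the TPC1 libraries.

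The members also varied together to different degrees, shown here for pairs chosen after their values were seen. Over the 12 libraries the log2 values of SPRED1 and PHLDA1 had a Pearson r of 0.952, and of 0.931 after the mean of each line was removed, which describes libraries that share their depth and preparation. In TD5 both were highest in replicate 3 and lowest in replicate 2, and their coefficients of variation there were 23.5% and 22.6%. DUSP6 and SPRY4 had an r of 0.831 over all libraries but 0.162 within lines. ETV4 and ETV5 had 0.664 and 0.812, and DUSP5 and PHLDA1 −0.696 and −0.467.

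**Figure D3:**
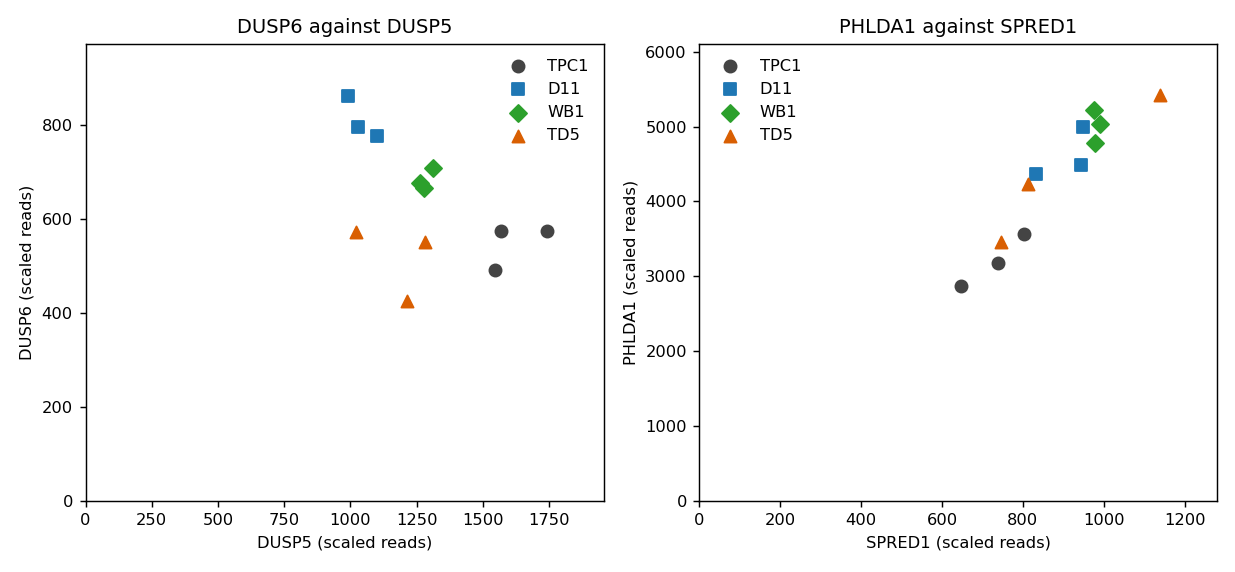
Scaled reads of DUSP6 (y axis) against DUSP5 (x axis), left, and of PHLDA1 (y axis) against SPRED1 (x axis), right, with 1 point per library. On the left the 4 lines form separate groups, with D11 at the top and TPC1 at the right, and on the right the 12 libraries follow 1 rising band, along which the TD5 libraries are spread widest.

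The genes whose log2 values followed the member with the most reads in each role most closely over the 12 libraries were PQBP1 (Pearson r 0.963), SLC39A7 (0.949) and SNURF (0.947) for DUSP5. For SPRED2 they were AP006621.3 (0.941), AC021218.1 (0.918) and TMEM158 (0.915), the first and second of which averaged only 1.4 and 1.7 reads per 1000000. Those for ETV5 included CPQ (0.861) and PPP1R1A (0.836), the latter of which also averaged only 1.4 reads per 1000000.

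The 71 other genes listed for the pathway, from receptors to ERK targets, included 70 that were tested. In D11 18 of the 70 rose and 13 fell, where 19.9 and 13.4% of all genes tested did. In WB1 20 and 11 did, where 18.6 and 12.3% of all genes did, and in TD5 7 and 8, where 5.32 and 6.57% did. The counts of each group of pathway genes that follow stand against these same shares of all genes. Among 14 tested receptors and adaptors 7 rose and 4 fell in D11. WB1 had 7 and 2, and TD5 0 and 1. Among 15 kinases and RAS genes of the cascade 5 rose and 4 fell in D11, with 5 and 3 for WB1 and 1 and 1 for TD5. In both lists limma called 0 genes in each clone, as did voom on the estimated reads, while 11, 12 and 5 of the receptors and adaptors and 10, 11 and 6 of the cascade had an unadjusted p under 0.05 in D11, WB1 and TD5. Of 8 other restraints of RAS and ERK, 1, 2 and 1 rose in D11, WB1 and TD5, and by limma or voom 0 fell, with 0, 0 and 2 lower at an unadjusted p under 0.05. Among those that rose was RASA2, a RAS GTPase-activating protein, with a log2 fold change of 0.81 in D11 (limma adjusted p = 0.00014) and 0.68 in WB1 (adjusted p = 0.000573). In TD5 RASA2 was at 0.21 (limma adjusted p = 0.272). After GC correction RASA2 was no longer called in D11 or WB1 (0.54 and 0.45).

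Of 8 other DUSP genes 0 rose by limma or voom, with 1, 0 and 1 higher at an unadjusted p under 0.05, and 2, 4 and 3 fell in D11, WB1 and TD5, as did DUSP5 among the members. DUSP1, the immediate early phosphatase of p38 and JNK, fell from 1982 ± 286 scaled reads in TPC1 to 1375 ± 146 in WB1 (log2 −0.52, limma adjusted p = 0.00322) and to 1271 ± 208 in TD5 (−0.64, adjusted p = 0.00149, called). In D11 it had 1694 ± 93.7 (adjusted p = 0.15). DUSP1 was no longer called in TD5 without TPC1 replicate 3 (−0.54) or TD5 replicate 1 (−0.51), and WB1 gained the call without TPC1 replicate 2 (−0.63) or its own replicate 1 (−0.60). DUSP2, a nuclear phosphatase of ERK and p38, fell from 46.7 ± 11.7 in TPC1 to 17.3 ± 5.86 (D11), 15.3 ± 6.11 (WB1) and 17 ± 7 (TD5), and DUSP8 from 23.0 ± 2.65 to 8.67 ± 2.52 in WB1. Both were called there by limma (adjusted p = 0.0029, 0.00151 and 0.00498 for DUSP2 and 0.00981 for DUSP8), but neither with a pseudocount of 4, and DUSP8 not without WB1 replicate 1 (−0.52) or after GC correction (−0.46). In D11 DUSP8 had 10.3 ± 2.08 (log2 −0.50, limma adjusted p = 0.0207) and in TD5 11.7 ± 6.66 (−0.46, adjusted p = 0.0619), called in neither. After GC correction D11 missed the threshold (0.0504) and TD5 passed it (0.0257).

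Of 10 further SPRY, SPRED and ETS genes 3 rose and 1 fell in D11, 2 rose in WB1 and 1 in TD5. ELK3, an ETS partner of serum response factor, went from 1588 ± 184 scaled reads in TPC1 to 2455 ± 157 in D11 (log2 0.63, limma adjusted p = 0.000401), while WB1 had 2587 ± 102 (0.70, adjusted p = 0.000145) and TD5 2287 ± 410 (0.51, adjusted p = 0.00335). ETV1, the third close relative of ETV4 and ETV5, rose in WB1 from 557 ± 83.6 to 934 ± 35.6 (0.74, adjusted p = 0.000726), and to 797 ± 106 in D11 (0.50, adjusted p = 0.00842). TD5 had 730 ± 156 for ETV1 (0.37, limma adjusted p = 0.0773). ELK3 was called in D11 and WB1 and ETV1 in WB1, and after GC correction none of these calls was left (0.48, 0.55 and 0.51). Without TPC1 replicate 3 (0.54) or D11 replicate 3 (0.57) ELK3 was not called in D11, and without TPC1 replicate 2 (0.59) or TD5 replicate 2 (0.62) it was called in TD5. ETV1 was called in D11 without TPC1 replicate 2 (0.62), and its adjusted p there was 0.122 after GC correction, 0.0524 without TPC1 replicate 3 and 0.0519 without D11 replicate 3. In TD5 ETV1 passed the threshold after GC (0.0482) or length correction (0.0457) and without TPC1 replicate 2 (0.036) or TD5 replicate 2 (0.00778).

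Among the other outputs, the immediate early genes EGR1 and FOS rose in all 3 clones. EGR1 had 23, 35 and 25 scaled reads in TPC1 and 337, 265 and 427 in D11. It had 140, 189 and 143 in WB1 and 349, 165 and 261 in TD5. All clone libraries were several times above all TPC1 libraries, with log2 fold changes of 2.91, 1.89 and 2.5 in D11, WB1 and TD5 (limma adjusted p = 3.41e-08, 9.96e-06 and 4.88e-07). FOS, a subunit of AP-1, averaged 11.3 ± 4.16 (TPC1), 26.7 ± 4.16 (D11), 47.3 ± 4.51 (WB1) and 48.3 ± 12.3 (TD5). Its log2 fold changes were 0.58, 1.11 and 1.12 (limma adjusted p = 0.00755, 6.31e-05 and 0.000123). AREG, an EGF receptor ligand that is an ERK target, fell from 51.3 ± 7.09 to 23.7 ± 2.52 in WB1 (−0.70, adjusted p = 0.00137) and to 11.3 ± 4.04 in TD5 (−1.19, adjusted p = 2.93e-05). In D11 AREG had 43.0 ± 6.93 (−0.18, limma adjusted p = 0.315), and its libraries overlapped with those of TPC1. FOS was called in WB1 and TD5. In D11, where its mean was 235.3% of that in TPC1, it was called without TPC1 replicate 1 (0.68) or D11 replicate 1 (0.65) and after GC correction (0.61). Over the alternatives that kept all libraries, its log2 fold change in D11 ranged from 0.22 to 1.27. With a pseudocount of 4 neither FOS nor AREG was called. Of the 15 other ERK outputs listed, 2 rose and 2 fell in D11, while WB1 had 4 and 2 and TD5 4 and 3.

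**Figure D4:**
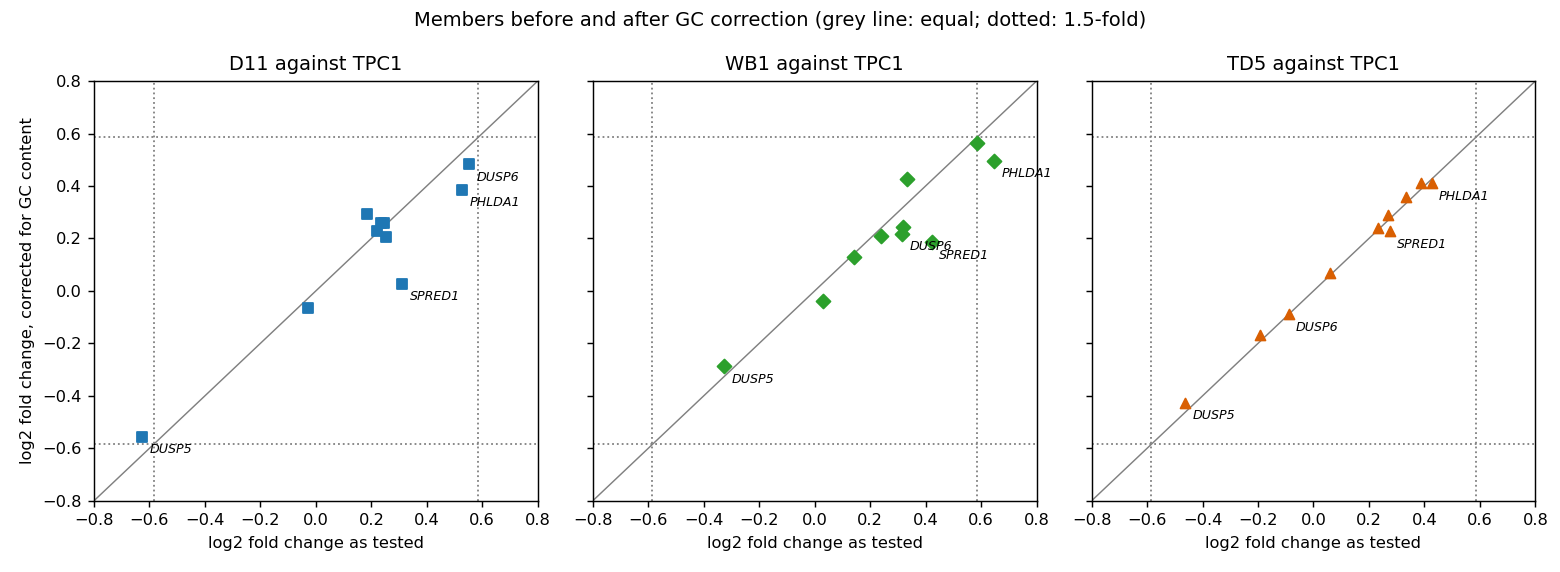
Log2 fold change of each member against TPC1 as tested (x axis) and after correction of each library for GC content (y axis), for D11, WB1 and TD5. DUSP5 moves from −0.627 to −0.555 in D11 and DUSP6 from 0.315 to 0.218 in WB1. SPRED1 drops from 0.31 to 0.03 in D11 and from 0.42 to 0.19 in WB1, and no member stays past the dotted lines at 1.5-fold.

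The members spanned the range of GC content, from percentile 3.6 of the genes tested for SPRED1 and 28.6 for PHLDA1 to 72.8 for DUSP5 and 87.2 for ETV4. After GC correction 0 members were called in D11 and WB1 by limma, while 6 and 6 had an adjusted p under 0.05, as had 5 in TD5. The 3′ UTRs differed in AU-rich pentamers (ATTTA): DUSP5 and ETV4 held 0, and SPRED1 and PHLDA1 held 24 and 14, or 4.3 and 3 per kilobase against a median of 1.78 over 12036 tested genes. SPRY2 (2.56), SPRY4 (2.12) and SPRED2 (1.89) were also above this median, and ETV5 (1.72), DUSP4 (1.51) and DUSP6 (0.5) below it. The nonamer ATTTATTTA was in 0 member UTRs and in 8.2% of all. Seed matches of miR-181a-5p, miR-31-5p and miR-27a-3p were each in 4 of the 10 member UTRs, against 22.5, 15 and 18.5% of all, whose median length is 1413 bases (7 of the 10 members are longer). Among UTRs of like length the shares were higher for the longer members, at 47.4, 31.2 and 38.6% for PHLDA1 and 41.1, 24.3 and 32.5% for SPRY4, and these 2 members held matches of all 3. DUSP5 held one of miR-181a-5p and of miR-27a-3p (13.9 and 11.3% of UTRs of like length), and SPRY2 one of miR-27a-3p (8.4%). Matches of let-7a-5p and miR-146b-5p were in 0 of the 10, against 11.6 and 13% of all, and SPRED2 alone held that of miR-221-3p and miR-222-3p, which share a seed (9.9% of all).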

How the data were processed

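RNA of 12 libraries was analysed, grouped by the titles in the labels into TPC1, D11, WB1 and TD5 (3 each). The authors prepared stranded mRNA libraries, mapped paired-end reads to GRCh38 with STAR 2.5.3a and counted them per gene of Ensembl 90 with HTSeq 0.9.1. The values deposited by the authors were scaled to 20000000 aligned reads and rounded up, so they were treated as a score and not as counts, and limma on log values was the main test, with voom on the estimated reads as an alternative. Each library was scaled to a sum of 1000000, and limma 3.58.1 (R 4.3.3, mean-variance trend, a mean for each line) was run on log2 of these values with 1 added. The reads behind each library were estimated by maximum likelihood from the steps between its values. The filter asked for 1 per 1000000 in 3 or more libraries. Two-sided p-values were adjusted by Benjamini-Hochberg over all 16027 genes tested, and a call needed an adjusted p under 0.05 and 1.5-fold. The scripts were tested on simulated data. GC content was known for 99.1% of tested genes.

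The members and lists were chosen with earlier results of these data known. The text names all members, DICER1, up to 3 called genes of each pathway list by size of change, and the 3 genes most correlated with the member with the most reads in each role. Alternatives were median-of-ratios scaling, pseudocounts of 0.1 and 4, no filter or 5 per 1000000, only the lines compared, voom on estimated reads, corrections for GC content and length, a replicate block with and without GC correction, no minimum or 2-fold change, and each library left out. Same-numbered libraries deviated together only in D11 and TD5 (r = 0.107, 0.172 and 0.348), a hint from the data that these are paired by number. Values printed for this pair are from the fit without the replicate block. Python 3.11.15 was used with pandas 2.3.3. Some genes that these rules name are not reported here. The siRNA experiment of the study was not analysed here.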

Additional observations from a re-analysis of the deposited data

Results flagged for a closer look

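These results differed between clones under the same contrast with TPC1, by the limma test of the difference itself over all 12 libraries. DUSP6 was lower in TD5 than in D11 (log2 difference −0.643, adjusted p = 0.00028) and than in WB1 (−0.403, adjusted p = 0.0139). SPRY4 was likewise lower in TD5 than in D11 (−0.426, adjusted p = 0.000793) and WB1 (−0.334, adjusted p = 0.00819). DUSP5 was less reduced in WB1 than in D11 (0.3, adjusted p = 0.0252).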

How the results depend on the processing

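Counts of called members against TPC1 moved with the settings. Without a minimum fold they were 6, 8 and 4 in D11, WB1 and TD5, and 1, 2 and 2 for WB1 against D11, TD5 against D11 and TD5 against WB1. At 2-fold, and after GC correction with or without the replicate block, 0 members were called in D11, WB1 and TD5 against D11, although 6, 6 and 2 had an adjusted p under 0.05 after GC correction, where in D11 SPRY2 lost the threshold (0.0537) and ETV4 gained it (0.0265). In WB1 0 were called with median-of-ratios scaling or length correction, and 1 with a pseudocount of 4, without the filter or with a filter of 5 per 1000000. With single libraries left out the counts were 1 to 2 in D11, 0 to 2 in WB1 and 0 to 1 for TD5 against D11. They were 2 in D11 without TPC1 replicate 1 or 2, 1 for WB1 when TPC1 replicate 2 or WB1 replicate 3 was left out and 0 without TPC1 replicate 3, and 0 for TD5 against D11 without TD5 replicate 2. Without TPC1 replicate 2 the members called in D11 were DUSP6 and PHLDA1, and DUSP5 lost its call. The replicate block alone changed no count of calls (TD5 against D11 had an adjusted p of 0.000738 for DUSP6 and 0.00225 for SPRY4 with it), and with it SPRY2 in D11 had an adjusted p of 0.0569. The cause of these changes was not tested, except that the fold rule itself sets the first 2. Of 23 member differences past the adjusted p threshold, 9 stayed past it under all alternatives.

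Signs changed only in log2 differences that had missed the adjusted p threshold, most of them near 0 but up to −0.20 (DUSP4, TD5 against WB1). For TD5 against D11, with median-of-ratios scaling, GC correction, length correction and the replicate block with GC correction, SPRY2 gave 0.032, 0.033, 0.002 and 0.033, and SPRED1 gave 0.015, 0.199, 0.069 and 0.199. After GC correction, with or without the block, PHLDA1 gave 0.025 for TD5 against D11, SPRED1 0.041 for TD5 against WB1, SPRED2 −0.017 for WB1 against D11 and ETV5 −0.039 for WB1 against TPC1. ETV5 in WB1 gave −0.034 with median-of-ratios scaling and −0.037 with length correction, and ETV4 for TD5 against WB1 gave 0.053 and 0.032. With single libraries left out, the range for TD5 against D11 was −0.014 to 0.311 (DUSP4), −0.054 to 0.026 (SPRY2), −0.216 to 0.084 (SPRED1), −0.005 to 0.114 (SPRED2) and −0.268 to 0.054 (PHLDA1). It was −0.357 to 0.011 (DUSP4), −0.015 to 0.073 (SPRED2), −0.056 to 0.056 (ETV4) and −0.016 to 0.072 (ETV5) for TD5 against WB1. It was −0.167 to 0.039 (DUSP6) for TD5 against TPC1. It was −0.034 to 0.085 (SPRED2) for WB1 against D11. It was −0.051 to 0.013 (ETV5) for D11 against TPC1. Of 972 values under other alternatives 907 kept their direction and side of the call, and of 1071 with 1 library left out 1033 did. The depth limits DUSP4 most, with 21 to 65 scaled reads.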
